A study of Mus musculus with 8 samples.

Results

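Mecom, Hlf, Myb, Mycn, Mllt3, Msi2, Prdm16, Ikzf1 and Ikzf2 are genes known from work on blood stem cells and their earliest progeny. They are described here across the cell types of the mouse aorta-gonad-mesonephros (AGM) region at E10.5, in normal embryos and in embryos with an endothelial deletion of Meis1. The 9 genes were taken by name, with earlier results of these data known, so the choice was not independent of the data. All 9 were found among the 28014 genes of the count table.

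Blood stem cells arise in the embryo from hemogenic endothelium of the dorsal aorta, in an endothelial-to-hematopoietic transition (EHT) in which cells lose endothelial genes, gain blood genes and leave the vessel wall. Erythro-myeloid progenitors (EMPs) come from an earlier wave, in the yolk sac, and are generally held to lack long-term stem cell activity. Mecom, which encodes the zinc finger factor Evi1, Hlf, a bZIP factor of the PAR family, and Prdm16, a PR domain factor related to Mecom, are each known as genes that stem cells use. Mllt3, also called AF9, recruits transcription elongation and histone methylation machinery, and Msi2 is an RNA-binding protein that acts on translation. Myb is a factor required for definitive blood formation, Mycn is the MYC family member often found in stem cells, and Ikzf1 (Ikaros) and Ikzf2 (Helios) are related zinc finger factors of blood cells.

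RNA and surface antibody tags were measured together in single CD31-positive cells by CITE-seq, in which antibodies carry a readable barcode, on a droplet platform that reads the 3' end of transcripts. Each of the 8 libraries pooled cells of 2 to 5 E10.5 embryos, given as strain C57BL/6. Of these, 5 were WT and 3 were Meis1-flox/VE-Cre, in which exon 8 of Meis1 is flanked by loxP sites and Cre is driven by the promoter of Cdh5 (VE-cadherin), a gene of endothelial cells, so that the allele is cut in endothelium and inherited by cells that derive from it. By its name in the paper the Cre line is of mixed strain origin, so the strain background may differ between the genotypes. The deposited annotation holds 15168 cells in 10 cell types: 4 clusters of venous endothelium (vEC_1 to vEC_4, also summed here as vEC), arterial endothelium (aEC), pre-hemogenic endothelium (pre-HE), cells in transition (EHT), EMP, Myeloid cells and Megakaryocytes. Since the cell types rest on clustering of this RNA, the genes tested between them below may have helped to define them. Levels are given as CPM, that is the UMIs (counted RNA molecules) of a gene scaled to the total of UMIs of all genes, summed over the cells of a library and cell type. Values listed per library are in the order WT 1 to WT 5, then Meis1-flox/VE-Cre 1 to 3. Cells of a library share their pool, so libraries are the replicates.

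The libraries held between 20484881 and 79429129 UMIs in total. A cell had a median of between 26572 and 28553 UMIs in WT 1 to WT 4, and of between 9611.5 and 14895 in the 3 Meis1-flox/VE-Cre libraries. WT 5, at 12720.5, was as shallow as the latter. Antibody tags were at 0 in WT 4. EHT cells numbered 326 in the WT libraries (31 to 118 per library) and 162 in the Meis1-flox/VE-Cre libraries (40 to 71), EMP cells 390 and 357, and pre-HE cells 171 and 77. Of 15135 barcodes, 33 were shared by libraries. Megakaryocytes of WT 3 numbered 5 cells and were left out, so that this cell type has 4 WT libraries.

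The tags were read from the 3' end of transcripts and counted per gene, not per exon, so the level of Meis1 is no direct test of the deletion of exon 8. In EHT cells Meis1 was at 80.03 ± 6.94 CPM (SD, n = 5) in WT and 62.1 ± 7.90 (n = 3) in Meis1-flox/VE-Cre libraries, a log2 difference of -0.34 ± 0.14 (SE, adjusted p = 0.460, edgeR quasi-likelihood test). In EMP cells it was at 65.6 ± 7.93 and 27.6 ± 7.95 CPM, a log2 difference of -1.20 ± 0.17 (adjusted p = 0.00663), with no overlap between the groups. It was at 119 ± 35.5 CPM (n = 4) and 58.4 ± 11.4 in Megakaryocytes, also with no overlap but not called (adjusted p = 0.297). In the endothelium the groups overlapped, at 31.8 ± 14.6 and 30.8 ± 21.8 CPM in pre-HE, 1.18 ± 0.267 and 1.79 ± 0.540 in aEC, and 4.87 ± 0.601 and 3.95 ± 0.865 in vEC cells. Meis1 RNA was thus lower in Meis1-flox/VE-Cre EMP cells, and did not separate the genotypes in EHT or endothelial cells.

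The cluster names were set against marker genes. Over the 5 endothelial markers (Cdh5, Eng, Kdr, Pecam1, Tie1) the summed level in WT libraries was 2375 to 2731 CPM in pre-HE, 1177 to 1445 in aEC, 277 to 531 in EHT and 41.7 to 114 in EMP cells. Over the 6 myeloid markers it was 0 to 4.67 CPM in pre-HE, 100.3 to 209 in EHT and 696 to 1061 in EMP cells, which overlapped the 644 to 1260 of Myeloid cells. Over the 5 lymphoid markers it was 15.2 to 27.0 in EHT cells, with Dntt at 0. Over the 5 EMP markers (Kit, Itga2b, Gata1, Gata2, Csf2rb) it was 249 to 351 CPM in EMP cells. This overlapped EHT cells (204 to 289) and lay below Megakaryocytes (578 to 1187), so these markers did not set EMP cells apart. The EHT markers Runx1, Gfi1, Spi1, Kit and Cdh5 were all detected in EHT cells, but their sum was higher in pre-HE cells (953 to 1202 CPM against 714 to 857), where Cdh5 is high. Scrublet called 15 of 488 EHT cells (3.07%) and 9 of 747 EMP cells (1.205%) doublets.

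The sequences at the start sites of these genes are shown because the comparison of genotypes removes a factor, Meis1, that binds DNA. Mecom and Prdm16 are shown because their windows held the longest run of bases shared between these genes. RefSeq windows of 300 bases, 250 before and 50 after a transcript start (GRCm38.p6), were found for 8 of the 9 genes, 13 windows in all. Ikzf2 was not matched. By RefSeq the genes span chr3:29951296-30509759 (Mecom), chr11:90336535-90390917 (Hlf), chr10:21124930-21160984 (Myb), chr12:12936093-12941836 (Mycn), chr4:87769925-88033407 (Mllt3), chr11:88339382-88718306 (Msi2), chr4:154316122-154637360 (Prdm16), chr11:11684962-11772930 (Ikzf1) and chr1:69531207-69687351 (Ikzf2). In the windows of Mecom (chr3:30509710-30510009, minus strand) and Prdm16 (chr4:154636824-154637123, minus strand) the capitals mark the longest run of bases that they share.
Mecom: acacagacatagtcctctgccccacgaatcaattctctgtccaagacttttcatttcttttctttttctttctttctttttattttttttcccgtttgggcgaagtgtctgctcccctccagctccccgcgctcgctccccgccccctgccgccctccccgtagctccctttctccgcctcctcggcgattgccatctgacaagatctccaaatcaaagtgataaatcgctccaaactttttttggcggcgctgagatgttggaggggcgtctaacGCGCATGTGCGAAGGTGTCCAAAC
Prdm16: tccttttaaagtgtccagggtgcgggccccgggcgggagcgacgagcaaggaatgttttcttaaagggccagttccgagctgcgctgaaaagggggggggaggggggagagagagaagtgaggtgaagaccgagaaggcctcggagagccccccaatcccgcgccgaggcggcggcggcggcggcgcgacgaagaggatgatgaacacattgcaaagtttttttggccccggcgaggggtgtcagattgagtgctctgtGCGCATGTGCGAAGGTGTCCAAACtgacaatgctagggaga
The shared run has 24 bases, starts 27 bases from the transcript start in Mecom and 10 bases from it in Prdm16, and occurs in 2 of 32851 windows, those of these genes. In Mecom it ends at the last base of the window, so the run that the genes share may be longer. The next longest run shared by any of the 72 pairs of windows of different genes had 12 bases. In the window of Mycn (chr12:12941787-12942086, minus strand) the capitals mark a match to TGACAG, the core of the motif bound by Meis1. The window of Hlf (chr11:90390868-90391167, minus strand) is shown beside it because Hlf had the largest log2 difference between genotypes among these genes in EHT cells. It held no match, so it has no capitals.
Mycn: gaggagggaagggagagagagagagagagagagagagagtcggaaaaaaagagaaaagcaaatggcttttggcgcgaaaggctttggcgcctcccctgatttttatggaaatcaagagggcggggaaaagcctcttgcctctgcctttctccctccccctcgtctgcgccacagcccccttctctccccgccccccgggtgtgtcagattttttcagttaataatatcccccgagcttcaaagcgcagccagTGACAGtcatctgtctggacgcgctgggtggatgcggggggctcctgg
Hlf: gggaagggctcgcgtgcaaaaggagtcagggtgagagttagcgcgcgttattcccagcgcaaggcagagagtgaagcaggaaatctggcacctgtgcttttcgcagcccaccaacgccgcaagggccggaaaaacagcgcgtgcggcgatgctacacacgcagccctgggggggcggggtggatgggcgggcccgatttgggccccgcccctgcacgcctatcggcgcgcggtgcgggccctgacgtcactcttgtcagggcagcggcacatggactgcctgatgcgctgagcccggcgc
TGACAG on either strand was found in 3 of the 13 windows (a second window each of Mecom and Mllt3, and Mycn) and in 19.2% of all windows. Other motifs were searched in the same way. The letters TGTGGT, which RUNX factors bind, were in 0 of 13 windows and in 16.8% of all windows. AGATAA, bound by factors of the GATA family, was in 0 of 13 and in 11.2% of all, and CCGGAAG, bound by ETS factors, in 0 of 13 and in 8.86%. The E-box CACGTG was in 3 of 13 windows, all of Msi2, and in 7.15% of all. The Msi2 windows overlap each other, since their starts lie close together, and hold the same matches. A match is a string of letters and not a bound site, and the absence of one says nothing about binding elsewhere at the gene.

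Across the 10 cell types, each gene had its own profile in the WT libraries. Mecom was highest in pre-HE cells, at 352 ± 46.2 CPM (SD, n = 5), followed by EHT (58.4 ± 8.83), aEC (49.7 ± 11) and vEC_4 (43.7 ± 10.4), and was lowest in EMP cells (0.882 ± 0.982). The ranges of EHT and aEC, and of aEC and vEC_4, overlapped. Hlf was at 101 ± 20.6 CPM in EHT cells, and its mean in the next cell type, Myeloid, was 4.20 ± 3.96. In the other 8 types Hlf lay below that, each range overlapping the next. Myb was at 187 ± 24.7 CPM in EMP and 157 ± 27.2 in EHT cells, then at 29.6 ± 13.9 in Myeloid cells and at 12.0 ± 8.08 in Megakaryocytes, and at 1.11 or below in each endothelial type.

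Mycn was highest in EHT cells at 158 ± 33.6 CPM, followed by vEC_1 at 47.1 ± 6.02 and vEC_2 at 47.0 ± 7.15, and was at 8.99 ± 3.30 in EMP and 7.36 ± 8.05 in pre-HE cells. Mllt3 was highest in pre-HE (97.8 ± 44.97) and in Megakaryocytes (96.2 ± 32.0, n = 4), whose ranges overlapped, and came next in EHT cells (38.2 ± 4.85). Msi2 was detected in every cell type, from 24.7 ± 5.57 CPM in Myeloid to 113 ± 13.9 in EHT cells. These 3 genes were thus present in endothelium as well as in blood cells, which Myb and Ikzf1 were not.

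Prdm16 was low in all cell types, with 20.5 ± 12.9 CPM in pre-HE cells, 4.94 ± 1.06 in vEC_4 and 3.85 ± 1.75 in EHT cells. Ikzf1 was at 73.0 ± 3.72 CPM in Myeloid, 63.7 ± 10.9 in EMP and 59.8 ± 11.8 in EHT cells, with overlapping ranges, and at 4.80 ± 2.84 in Megakaryocytes. Ikzf2 was at 154 ± 31.8 CPM in EHT and 124 ± 15.8 in EMP cells, also overlapping, then at 45.6 ± 17.7 in Megakaryocytes and 31.2 ± 7.77 in pre-HE cells. In pre-HE cells Ikzf2 was thus above its level in each endothelial type (4.35 or less), while Ikzf1 had 6 UMIs there over all 5 libraries.

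**Figure D1:**
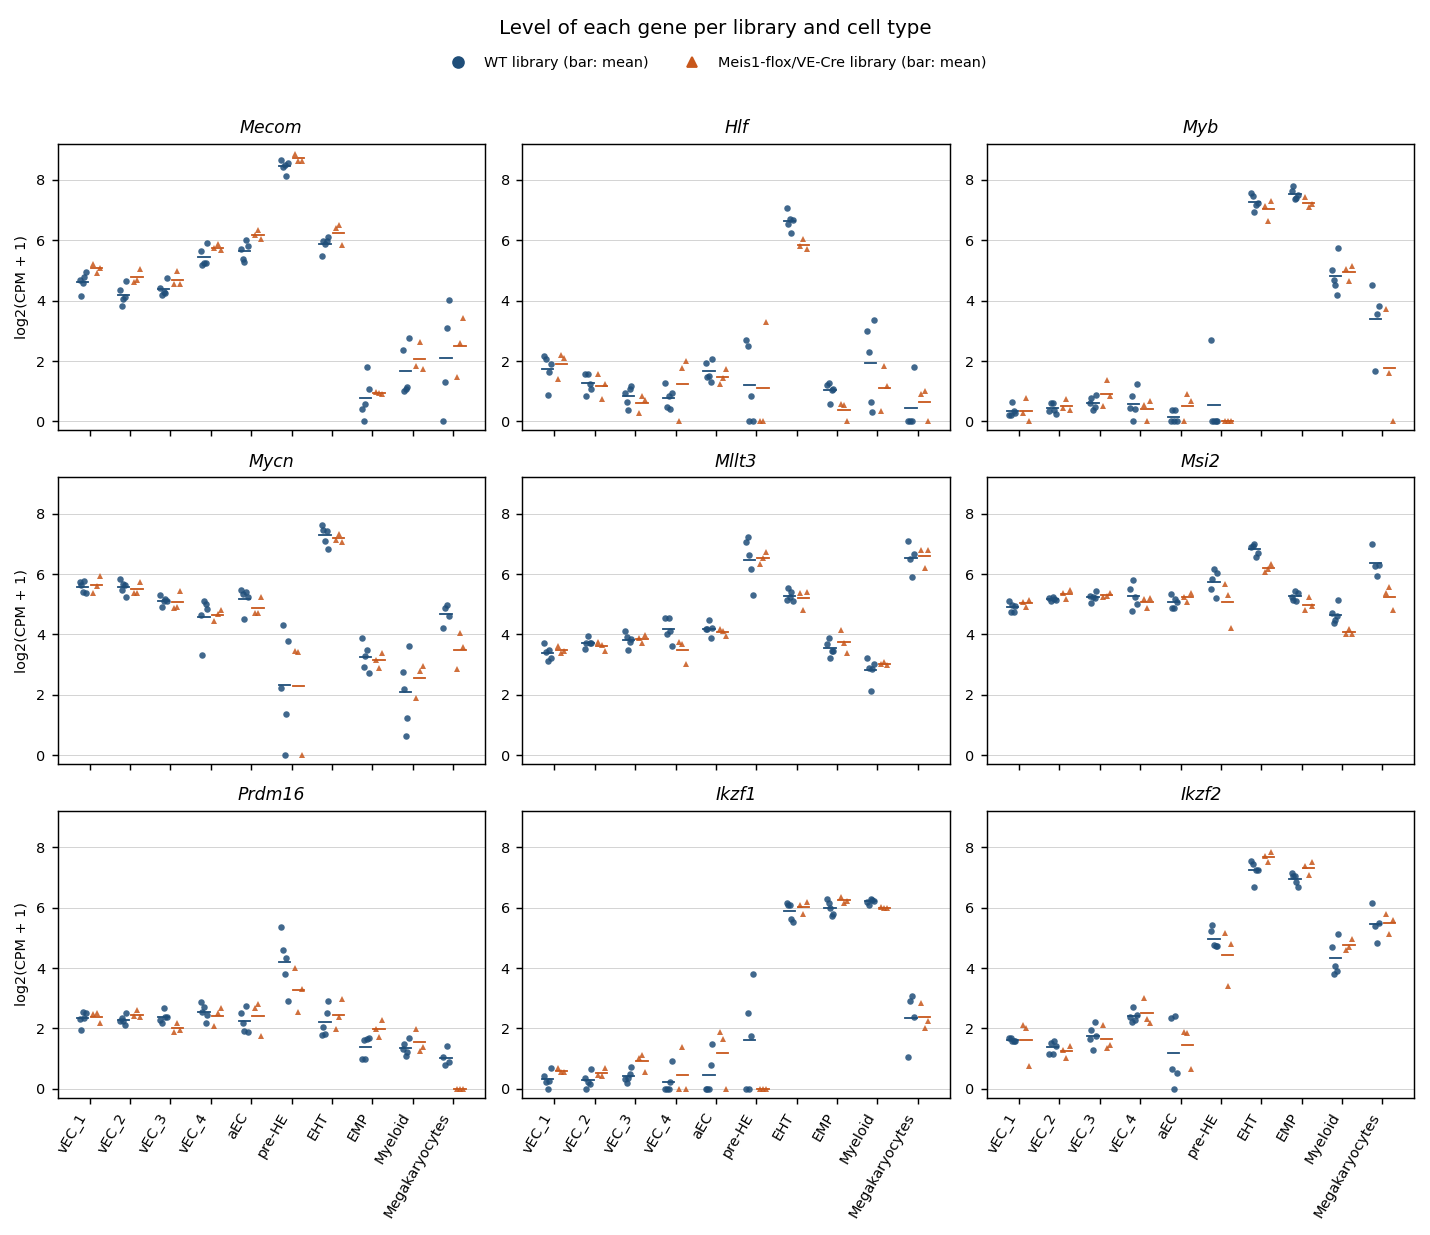
Level of each gene per library (points, log2 of CPM plus 1 on a shared axis) in the 10 cell types, with the mean of the WT (circles) and Meis1-flox/VE-Cre (triangles) libraries as a bar. Hlf stands out in EHT alone (101 CPM against 4.20 or less elsewhere in WT), Mecom peaks in pre-HE (352), and Myb, Ikzf1 and Ikzf2 are high in both EHT and EMP cells.

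Whether EHT cells differed from the endothelium was first asked against arterial endothelium, the wall from which they emerge. All WT libraries had more Hlf, Myb, Mycn, Mllt3, Msi2, Ikzf1 and Ikzf2 in EHT than in aEC cells, with no overlap of the groups, while Mecom did not differ beyond the spread between libraries. Of the 9 genes, 8 passed the filter on low counts and 7 were called at an adjusted p under 0.1, all 7 higher in EHT, against 71.5% of all genes tested called, 35.8% higher and 35.7% lower. The median log2 fold change of the 8 genes was 3.67, and that of all genes 0.01. Myb (3 UMIs over all aEC cells), Ikzf1 (9), Hlf (34) and Ikzf2 (45) passed the filter through EHT alone. These genes could only be called higher in EHT, so the count by direction and the median are a description.

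Mecom measured 43.9, 61.4, 57.7, 61.8 and 67.3 CPM in EHT and 51.0, 40.2, 37.5, 64.1 and 55.7 in aEC cells. The ranges overlapped widely, and EHT was the higher in 3 of 5 libraries. Its log2 fold change was 0.07 ± 0.12 (SE, adjusted p = 0.633, edgeR quasi-likelihood test), and its sign turned when WT 2 was left out (-0.034). With every cell thinned to 5000 UMIs the difference passed the threshold (0.36, adjusted p = 0.0803).

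Hlf measured 132, 92.7, 103, 75.5 and 100.5 CPM in EHT and 2.84, 1.76, 1.83, 1.48 and 3.14 in aEC cells, a log2 fold change of 5.38 ± 0.15 (adjusted p = 1.59e-13). Mycn measured 197, 175, 136, 169.7 and 112 CPM in EHT and 43.2, 39.6, 21.9, 40.9 and 36.4 in aEC cells, a log2 fold change of 1.96 ± 0.10 (adjusted p = 4.09e-11). Both genes were higher in EHT cells in every library, Hlf from a level near the detection limit and Mycn from one that was clearly measured. Myb had 3 UMIs in 888 aEC cells and a log2 fold change of 9.34 ± 0.21. The other log2 fold changes were 6.49 ± 0.33 for Ikzf1, 5.79 ± 0.23 for Ikzf2, 1.61 ± 0.11 for Msi2 and 1.09 ± 0.15 for Mllt3.

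Against venous endothelium, 8 of 9 tested genes were called, all 8 higher in EHT, where 64.5% of all genes were called, 31.6% higher and 32.9% lower. Here Mecom was called too, with 24.6, 17.7, 20.2, 22.1 and 30.9 CPM in vEC cells, below every EHT value, and a log2 fold change of 1.28 ± 0.11 (adjusted p = 7.31e-08). Prdm16, at 4.14, 3.69, 4.59, 3.79 and 4.56 CPM in vEC and 2.41, 3.13, 2.51, 4.69 and 6.52 in EHT cells, was not called (-0.12 ± 0.27, adjusted p = 0.733). The Prdm16 values of both groups overlapped, and the EHT values rest on 3 to 12 UMIs per library. Hlf (5.95 ± 0.11), Myb (8.54 ± 0.12), Mycn (1.89 ± 0.08), Mllt3 (1.56 ± 0.11), Msi2 (1.64 ± 0.08), Ikzf1 (7.72 ± 0.24) and Ikzf2 (5.99 ± 0.10) were higher in EHT cells on the log2 scale. These comparisons share the EHT libraries, so they are not independent of each other. Myb (52 UMIs over all vEC cells) and Ikzf1 (33) passed the filter through EHT alone and could only be called higher there.

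Pre-HE cells, the endothelial cells placed closest to the transition, showed another order. Mecom, Mllt3 and Ikzf2 were higher and Mycn was lower in pre-HE than in aEC cells. Of 5 genes tested 4 were called, 3 higher and 1 lower, against 42.1% of all genes, 21.1% in each direction, and the median log2 fold change of the 5 was 2.47 against 0.01 over all genes. Ikzf2 (45 UMIs over all aEC cells) passed the filter through pre-HE alone and could only be called higher there. Mycn (10 UMIs over all pre-HE cells) passed it through aEC alone and could only be called lower in pre-HE cells. The count by direction and the median are thus a description. Mecom measured 404, 341, 357, 281 and 379.8 CPM in pre-HE cells, above every aEC value (log2 fold change 2.65 ± 0.13, adjusted p = 1.07e-20). Mycn measured 3.69, 18.7, 0, 1.58 and 12.9 CPM in pre-HE cells, from 0 to 4 UMIs per library, all below the aEC values (-3.21 ± 0.37, adjusted p = 1.46e-09). Mllt3 measured 133, 149, 97.2, 71.2 and 38.6 CPM against 17.01, 17.03, 21.0, 13.6 and 17.5 in aEC cells (2.47 ± 0.19). Mllt3 was thus the higher in pre-HE cells of all 5 libraries, with a wide spread among them.

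Ikzf2 was higher in pre-HE than in aEC cells by 3.36 ± 0.39 on the log2 scale (adjusted p = 1.61e-09), at 36.9, 42.0, 25.9, 25.3 and 25.7 CPM. Msi2 did not pass the threshold (0.36 ± 0.20, adjusted p = 0.157), with overlapping values, but did so without WT 4 (0.0613). Prdm16 (40.5, 23.3, 13.0, 19.0 and 6.44 CPM in pre-HE against 4.73, 3.52, 2.74, 5.63 and 2.70 in aEC cells) was removed by the filter on low counts. The Prdm16 values of the groups did not overlap, on 1 to 24 UMIs per library in pre-HE cells. Arterial markers moved with these results: their summed level was 1083 to 1517 CPM in pre-HE and 166 to 248 in aEC cells, and their part in the result was not tested.

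From pre-HE to EHT cells, all 8 tested genes were called, 6 higher and 2 lower in EHT, against 61.6% of all genes, 31.6% higher and 30.0% lower. The 2 that were lower were Mecom (-2.55 ± 0.13, adjusted p = 2.31e-17) and Mllt3 (-1.29 ± 0.19, adjusted p = 7.28e-07). Mecom was lower in EHT cells in all 5 libraries with no overlap, at a mean of 58.4 against 352 CPM. Mllt3 was lower in all 5 libraries too, but the groups overlapped, since the pre-HE value of WT 5 (38.6 CPM, 6 UMIs in 16 cells) lay within the range of EHT values (33.7 to 45.1).

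The 6 that were higher in EHT than in pre-HE cells were Myb (6.82 ± 0.35), Hlf (5.39 ± 0.33), Mycn (5.23 ± 0.30), Ikzf1 (4.39 ± 0.40), Ikzf2 (2.40 ± 0.17) and Msi2 (1.23 ± 0.16), and in none of them did the groups overlap. Pre-HE cells had 3 UMIs of Myb, all in WT 1, 5 of Hlf, 6 of Ikzf1 and 10 of Mycn over 171 cells. These genes passed the filter through EHT and could only be called higher there, so the count by direction is a description. Mycn was lowest at the middle one of these stages: it was at 36.4 ± 8.44 CPM in aEC, 7.36 ± 8.05 in pre-HE and 158 ± 33.6 in EHT cells. Prdm16 was at 20.5 ± 12.9 CPM in pre-HE and 3.85 ± 1.75 in EHT cells, with overlapping values, and was not tested.

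**Figure D2:**
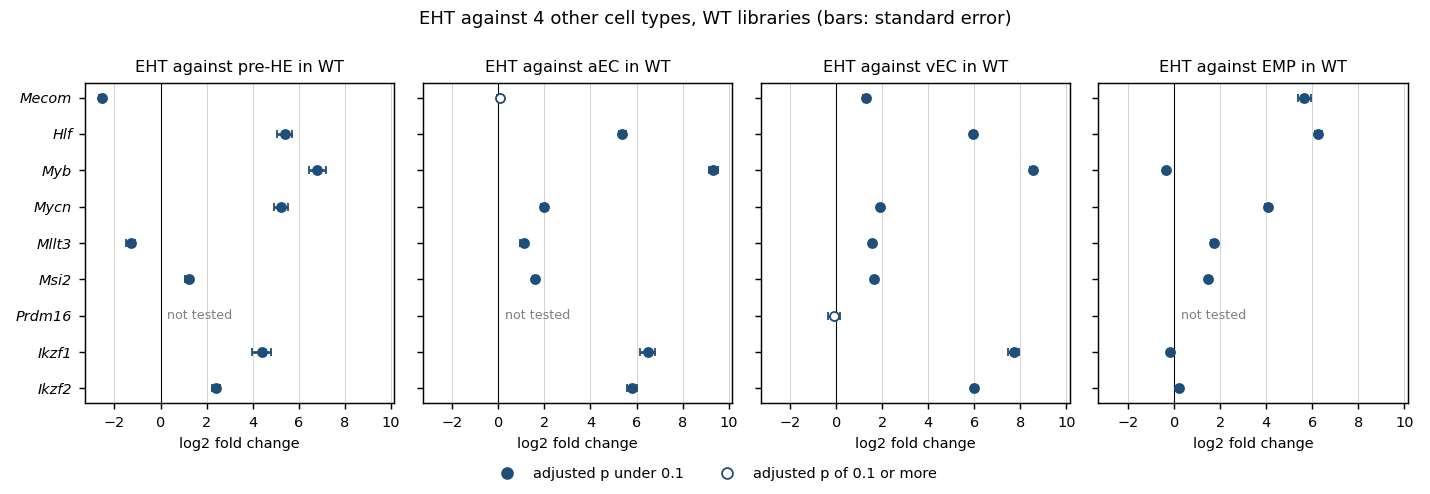
Log2 fold change of each gene between EHT and 4 other cell types in the WT libraries, with its standard error as a bar, filled where the adjusted p was under 0.1. Hlf and Mycn lie to the right of 0 in every panel, Mecom lies at -2.55 against pre-HE, near 0 against aEC and at 5.66 against EMP, and Myb lies near 0 against EMP only.

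EHT and EMP cells are both progenitors of blood, of different origin, and the 9 genes fell into those that set them apart and those that they shared. Mecom, Hlf, Mycn, Mllt3 and Msi2 were higher in EHT cells in all 5 WT libraries with no overlap, while Myb, Ikzf1 and Ikzf2 were at like levels with small differences. All 8 tested genes were called, 6 higher and 2 lower in EHT cells, against 56.4% of all genes, 28.8% higher and 27.6% lower. The median log2 fold change of the 8 was 1.60, and that of all genes 0.01.

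Mecom measured 0.33, 0, 0.484, 2.48 and 1.11 CPM in EMP cells, or 19 UMIs in 390 cells, and Hlf measured 1.32, 1.40, 0.484, 1.06 and 1.11, or 20 UMIs. Against EHT cells the log2 fold changes were 5.66 ± 0.29 (adjusted p = 1.17e-09) and 6.26 ± 0.16 (adjusted p = 3.04e-12). Both genes were near their detection limit in EMP cells, with means 66.2 and 93.6 times lower than in EHT cells. They passed the filter through EHT alone, so each could only be called higher in EHT cells. Mycn measured 13.9, 6.52, 8.72, 10.3 and 5.56 CPM in EMP cells, a log2 fold change of 4.06 ± 0.12 (adjusted p = 4.68e-12).

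Mllt3 and Msi2 differed by less. Mllt3 measured 34.2, 45.1, 36.8, 41.1 and 33.7 CPM in EHT and 11.9, 13.7, 8.23, 9.93 and 10.0 in EMP cells (1.72 ± 0.14, adjusted p = 7.94e-08). Msi2 measured 119, 122, 126, 93.1 and 104 CPM in EHT and 36.7, 34.5, 42.6, 33.5 and 40.8 in EMP cells (1.48 ± 0.08, adjusted p = 3.08e-09). In each of these genes the lowest EHT value was at least 2 times the highest EMP value. Prdm16 was higher in EHT cells of all 5 libraries (2.41, 3.13, 2.51, 4.69 and 6.52 against 0.991, 2.10, 0.969, 2.13 and 2.22 CPM) but did not pass the filter on low counts.

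Myb measured 191, 177, 122, 144 and 151 CPM in EHT and 198, 224, 163, 168 and 181 in EMP cells. EMP was the higher in all 5 libraries, the groups overlapped, and the log2 fold change was -0.35 ± 0.06 (adjusted p = 0.000292). This call was lost when every cell was thinned to 5000 UMIs (-0.17, adjusted p = 0.351). Ikzf1 measured 70.9, 66.4, 67.7, 48.5 and 45.6 CPM in EHT and 77.9, 70.8, 63.0, 51.8 and 54.9 in EMP cells (-0.20 ± 0.08, adjusted p = 0.0480), and Ikzf2 185, 175, 103, 152 and 152 against 140.4, 132, 132, 114 and 102 (0.23 ± 0.10, adjusted p = 0.0688). EHT was the lower in 4 of 5 libraries for Ikzf1 and the higher in 4 of 5 for Ikzf2. Neither call held with DESeq2 (adjusted p = 0.262 and 0.253), without WT 1 (0.116 and 0.175) or without WT 5 (0.148 and 0.230), and that of Ikzf2 was also lost without WT 2 (0.153) and without WT 4 (0.190).

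Endothelial and myeloid markers also differed between these cells, by the ranges given above, and their part in the differences was not tested. Without the cells called doublets, all 8 genes kept the direction of their log2 fold change and their side of the threshold.

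The split between the 2 kinds of progenitor was seen in the Meis1-flox/VE-Cre libraries too. All 8 tested genes were called, 6 higher and 2 lower in EHT cells, against 37.8% of all genes, 18.4% higher and 19.4% lower, with a median log2 fold change of 1.27 against -0.01 over all genes. Mecom measured 84.2, 89.6 and 56.9 CPM in EHT and 0.974, 0.921 and 0.861 in EMP cells (6.12 ± 0.31, adjusted p = 9.81e-14). Hlf measured 55.2, 64.6 and 51.3 against 0.487, 0.461 and 0 CPM (7.07 ± 0.43), and Mycn 140.3, 160.5 and 133 against 7.79, 6.45 and 9.48 (4.04 ± 0.19). In all 3 the groups lay far apart. Mecom (6 UMIs over all EMP cells of this genotype) and Hlf (2) passed the filter through EHT alone and could only be called higher there. Mllt3 (1.41 ± 0.25) and Msi2 (1.13 ± 0.17) were also higher in EHT cells.

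Myb (-0.32 ± 0.12, adjusted p = 0.0433), Ikzf1 (-0.32 ± 0.14, adjusted p = 0.0954) and Ikzf2 (0.22 ± 0.10, adjusted p = 0.0866) differed by little between EHT and EMP cells of this genotype. With DESeq2 none of these 3 was called (adjusted p of 0.344, 0.562 and 0.510) and 5 genes were, as also without the library block. Leaving out a library gave 5 to 7 calls: Myb and Ikzf1 were lost without library 1 (adjusted p = 0.269 and 0.340) and without library 2 (0.200 and 0.263), and Ikzf2 without each of the 3 (0.168 to 0.244) and without doublets (0.154). Whether the difference between EHT and EMP cells itself changed with genotype was tested by an interaction term, with 0 of 8 genes called by edgeR, 0 at an unadjusted p under 0.05, and 0 called by DESeq2, against 0.402% of all genes. The estimates ranged from -0.35 ± 0.18 for Msi2 (adjusted p = 0.667) to 0.94 ± 0.74 for Hlf (adjusted p = 0.842).

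EMP cells were also set against the other blood cells and against venous endothelium in the WT libraries, to place the genes that EHT and EMP cells share. Myb fell from EMP to Myeloid cells by 2.70 ± 0.18 and to Megakaryocytes by 3.98 ± 0.33 on the log2 scale. Of 6 genes tested against Myeloid cells 6 were called, against 61.1% of all genes. Ikzf2 was 2.63 ± 0.20 higher in EMP than in Myeloid cells, and Msi2 0.56 ± 0.10 and Mllt3 0.73 ± 0.16 higher. Ikzf1 was lower in EMP cells (-0.24 ± 0.10, adjusted p = 0.0717), at 72.4, 67.1, 77.0, 74.9 and 73.6 CPM in Myeloid cells, and Mycn was higher (1.07 ± 0.43, adjusted p = 0.0552), both with overlapping groups. The Ikzf1 call was lost without WT 3 (0.138), WT 4 (0.287) or WT 5 (0.204), and the Mycn call without WT 1 (0.136) or WT 4 (0.200).

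Against Megakaryocytes 6 of 6 tested genes were called, where 58.9% of all genes were. Mllt3 was lower in EMP cells by 3.09 ± 0.20 and Msi2 by 1.27 ± 0.19 on the log2 scale, with 136, 89.1, 58.8 and 101 CPM of Mllt3 and 128, 75.3, 60.4 and 78.6 of Msi2 in Megakaryocytes of WT 1, 2, 4 and 5. Both genes had all Megakaryocyte values above all EMP values, and Mycn did too (EMP lower by 1.63 ± 0.26). Ikzf1 was higher in EMP cells by 3.57 ± 0.26 and Ikzf2 by 1.36 ± 0.19.

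Against vEC cells 7 of 9 tested genes were called, against 78.8% of all genes, a share near the background. Myb (8.88 ± 0.10), Ikzf1 (7.94 ± 0.21) and Ikzf2 (5.74 ± 0.11) were higher in EMP cells, as they were in EHT cells. Mecom (-4.36 ± 0.31), Mycn (-2.14 ± 0.12) and Prdm16 (-1.14 ± 0.26) were lower in EMP than in vEC cells. Myb (52 UMIs over all vEC cells) and Ikzf1 (33) passed the filter through EMP alone and could only be called higher there. Mecom (19 UMIs over all EMP cells) passed it through vEC alone and could only be called lower in EMP cells. Hlf (-0.35 ± 0.31, adjusted p = 0.336) and Mllt3 (-0.14 ± 0.12, adjusted p = 0.306) did not pass the threshold, and Msi2 passed it by little (0.17 ± 0.07, adjusted p = 0.0522) and not without WT 2 (0.128) or WT 3 (0.114).

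The share of cells with at least 1 UMI was compared after each cell was thinned to 5000 UMIs, which left out 1 of 326 EHT and 0 of 390 EMP cells of the WT libraries. Mecom was found in 27.0% ± 7.89 (SD over 5 libraries) of EHT cells, in 73.4% ± 6.64 of pre-HE and in 0.194% ± 0.434 of EMP cells. Hlf was found in 37.0% ± 7.13 of EHT and 1.12% ± 1.13 of EMP cells, and Mycn in 52.5% ± 3.74 and 2.47% ± 1.84. Myb was found in 49.3% ± 9.05 of EHT and 51.5% ± 7.72 of EMP cells, against 0.153% ± 0.0974 of vEC cells, which are not known to use it. Before thinning, the shares in EHT cells were 64.9% for Mecom, 78.5% for Hlf, 87.7% for Myb and 91.9% for Mycn. The median UMIs per cell before thinning ranged over libraries from 13526 to 39461 in EHT, 21434 to 53132 in EMP and 11915 to 28200 in vEC cells. The Mecom share in EMP cells came from 1 cell of 390, and its exact 95% binomial interval (0.00649% to 1.42%) covers the share of Myb in vEC cells, while the Hlf share in EMP cells stood beside 0.582% ± 0.398 in vEC cells.

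**Figure D3:**
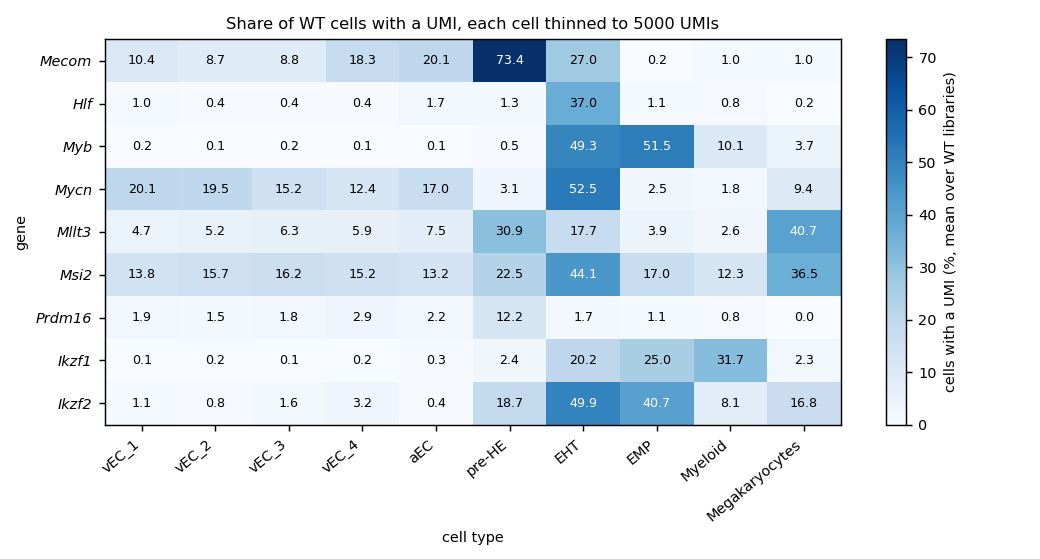
Share of WT cells with at least 1 UMI of each gene in each cell type, as the mean over libraries in percent, after each cell was thinned to 5000 UMIs. Hlf reaches 37.0% in EHT and at most 1.7% elsewhere, and Mecom 73.4% in pre-HE, 27.0% in EHT and 0.2% in EMP cells.

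Within EHT cells of the WT libraries, genes of the endothelial and blood groups were found in the same cells. Of 325 thinned cells, 92 had a Mecom UMI and 156 a Myb UMI, and 41 had both (12.6%). Myb was found in 44.6% of the cells with Mecom and in 49.4% of those without. Hlf and Myb were found together in 63 cells, with Myb in 52.9% of cells with Hlf and 45.1% of cells without, and Mycn and Myb in 82 cells. Mecom and Ikzf1 were found together in 11 cells, with Ikzf1 in 12.0% of the cells with Mecom and 20.2% of those without. Cells called doublets (15 of 488 EHT cells over both genotypes) were kept here, and their part in these shares was not tested. At this depth a cell without a UMI may still express the gene, and cells of a library are not independent, so these shares are given as a description.

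The antibody tag for CD43 (the product of Spn, a surface protein that rises as blood cells form) gave a split of EHT cells that was read from protein and not from the RNA counts. In each of the 7 libraries with tags, EHT cells above that library's median CD43 tag count were compared with the rest. Mecom, Mllt3 and Mycn were lower, and Myb and Ikzf1 higher, in the CD43-high cells. Of 8 genes tested 5 were called, 2 higher and 3 lower, against 12.1% of all genes, 5.05% higher and 7.08% lower. The median log2 fold change of the 8 was 0.00, and that of all genes 0.01.

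Mecom measured 42.1, 46.1, 49.3 and 43.3 CPM in the CD43-high cells of WT 1, 2, 3 and 5 and 48.6, 39.7 and 39.6 in those of Meis1-flox/VE-Cre 1 to 3. In the CD43-low cells it measured 46.7, 81.6, 66.9 and 97.0, and 133, 145 and 78.8 CPM. It was lower in the CD43-high cells of 7 of 7 libraries, with similar levels among CD43-high cells and a wide range among CD43-low cells (log2 fold change -0.95 ± 0.15, adjusted p = 3.9e-05). Mllt3 ranged from 15.7 to 44.6 CPM (median 23.8) in CD43-high and from 30.7 to 66.4 (median 55.7) in CD43-low cells. It was lower in 6 of 7 libraries (-1.24 ± 0.20, adjusted p = 3.9e-05). Mycn ranged from 86.6 to 158 CPM (median 137) and from 119.8 to 261 (median 169), and was lower in 5 of 7 libraries (-0.50 ± 0.11, adjusted p = 0.00213).

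Myb ranged from 107 to 198 CPM (median 169) in CD43-high and from 79.2 to 179 (median 121) in CD43-low cells, and Ikzf1 from 52.1 to 98.7 (median 82.7) and from 33.4 to 66.2 (median 37.6). Each was higher in CD43-high cells of 7 of 7 libraries, by 0.41 ± 0.10 (adjusted p = 0.00722) and 0.82 ± 0.15 (adjusted p = 0.000252) on the log2 scale. Hlf was not called over the 7 libraries (0.36 ± 0.15, adjusted p = 0.146). It measured 153, 105, 145 and 109 CPM in CD43-high and 98.5, 75.8, 56.3 and 89.7 in CD43-low cells of the WT libraries, and 46.9, 51.6 and 44.6 against 66.4, 79.0 and 59.9 in the Meis1-flox/VE-Cre libraries. Hlf was thus higher in CD43-high cells of all 4 WT and lower in those of all 3 Meis1-flox/VE-Cre libraries. The Meis1-flox/VE-Cre values rest on few UMIs, 28 against 29, 13 against 18 and 18 against 19 in CD43-high against CD43-low cells. Their direction is therefore uncertain from counting error alone. It passed the threshold without Meis1-flox/VE-Cre 1 (0.0755) or 3 (0.0825), and the difference between genotypes in this split was not tested. Msi2 (0.23 ± 0.13, adjusted p = 0.314) and Ikzf2 (-0.22 ± 0.11, adjusted p = 0.235) did not pass the threshold, which Ikzf2 did without WT 3 (0.0936).

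Other measures moved with the CD43 split. The summed level of the 5 endothelial markers was 179 to 409 CPM (median 217) in CD43-high and 374 to 691 (median 438) in CD43-low cells, lower in 7 of 7 libraries, and that of the 5 arterial markers 7.94 to 29.7 and 48.1 to 160.2, also lower in 7 of 7. The 6 myeloid markers were higher in CD43-high cells of 6 of 7 libraries (132 to 233 against 65.1 to 204 CPM). CD43-high cells also held more UMIs in all 7 libraries, for example 40060 against 24760 per cell in WT 1. The part of these in the result was not tested, but with cells thinned to 5000 UMIs 5 genes passed the filter, not Mecom, Mllt3 or Ikzf1, and 3 were called: Myb (0.74, adjusted p = 0.00289), Msi2 (0.78, 0.00910) and Mycn (-0.47, 0.0957). Split by the CD45 tag, 0 genes were called by edgeR, and by the CD117 and CD41 tags 2 and 3.

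**Figure D4:**
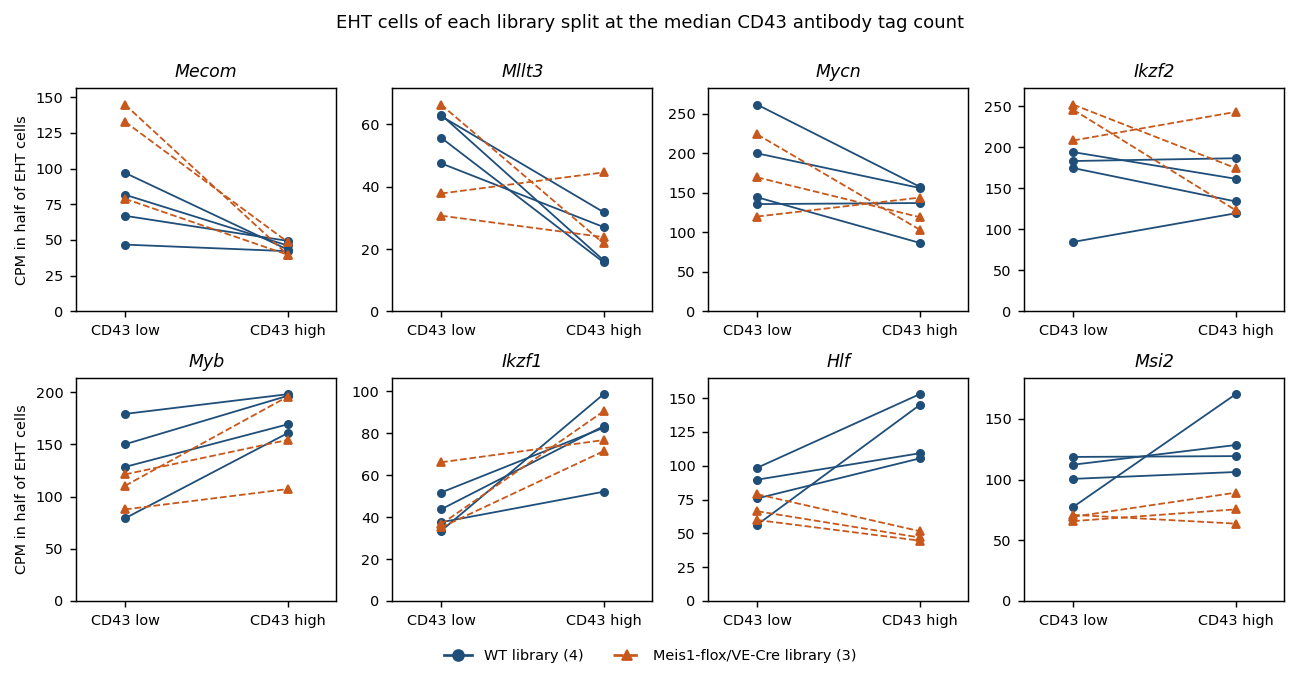
CPM of 8 genes in EHT cells below and above the median CD43 tag count of their library, with a line per library (4 WT, 3 Meis1-flox/VE-Cre). Lines of Mecom fall in 7 of 7 libraries, and those of Myb and Ikzf1 rise in 7 of 7. Those of Hlf rise in the 4 WT and fall in the 3 Meis1-flox/VE-Cre libraries, the latter on 13 to 29 UMIs per point.

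The genotypes were compared within each cell type, to ask how the genes depend on endothelial Meis1. In EHT cells Hlf and Msi2 had lower values in every Meis1-flox/VE-Cre library than in any WT library, but no gene passed the threshold. The share of all genes without overlap between the genotypes was not computed, in EHT or in any other cell type. Such separations, here and below, are therefore a description. Of 8 genes tested, 0 were called by edgeR, against 0.127% of all genes called by edgeR. Of the 8, 4 had an unadjusted p under 0.05, and DESeq2 called 1, Hlf (adjusted p = 0.0616). Unless stated, shares of all genes between genotypes, here and below, are of edgeR calls at an adjusted p under 0.1. They are no background for counts at an unadjusted p or by DESeq2. The median log2 difference of the 8 was -0.04, and that of all genes 0.00.

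Hlf measured 132, 92.7, 103, 75.5 and 100.5 CPM in WT and 55.2, 64.6 and 51.3 in Meis1-flox/VE-Cre libraries, a log2 difference of -0.80 ± 0.18 (adjusted p = 0.142, edgeR quasi-likelihood test). Msi2 measured 119, 122, 126, 93.1 and 104 in WT and 66.8, 70.9 and 80.5 in Meis1-flox/VE-Cre libraries, a log2 difference of -0.59 ± 0.15 (adjusted p = 0.182). In both genes the highest Meis1-flox/VE-Cre library lay below the lowest WT library. With WT 5, the library of like depth, as the only WT library, the log2 differences were -0.85 for Hlf (adjusted p = 0.569) and -0.53 for Msi2 (adjusted p = 1). Hlf was called without WT 4 (adjusted p = 0.0390), and both were called without WT 5 (0.0409 and 0.0587). The share of thinned EHT cells with an Hlf UMI was 37.0% ± 7.13 in WT and 20.3% ± 6.72 in Meis1-flox/VE-Cre libraries (78.5% ± 9.58 and 41.0% ± 2.37 before thinning).

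Ikzf2, at 207, 181 and 228 CPM, and Mecom, at 84.2, 89.6 and 56.9, had higher means in Meis1-flox/VE-Cre EHT cells, with groups that overlapped (0.46 ± 0.16, adjusted p = 0.349, and 0.42 ± 0.18, adjusted p = 0.465). Myb, Mycn, Mllt3 and Ikzf1 had log2 differences between -0.19 and 0.19. Marker levels of other cells moved with genotype in EHT cells: the 5 megakaryocyte markers summed to 71.4 to 82.4 CPM in WT and 42.6 to 58.3 in Meis1-flox/VE-Cre libraries, the 5 lymphoid markers to 15.2 to 27.0 and 0.968 to 6.25 (with Rag1, Dntt and Igll1 at 0 in the latter), and the 6 erythroid markers to 12.5 to 175 and 131 to 178. Depth moved with genotype as well, except in WT 5, so genotype and depth cannot be told apart in WT 1 to WT 4. The part of the markers in these differences was not tested.

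**Figure D5:**
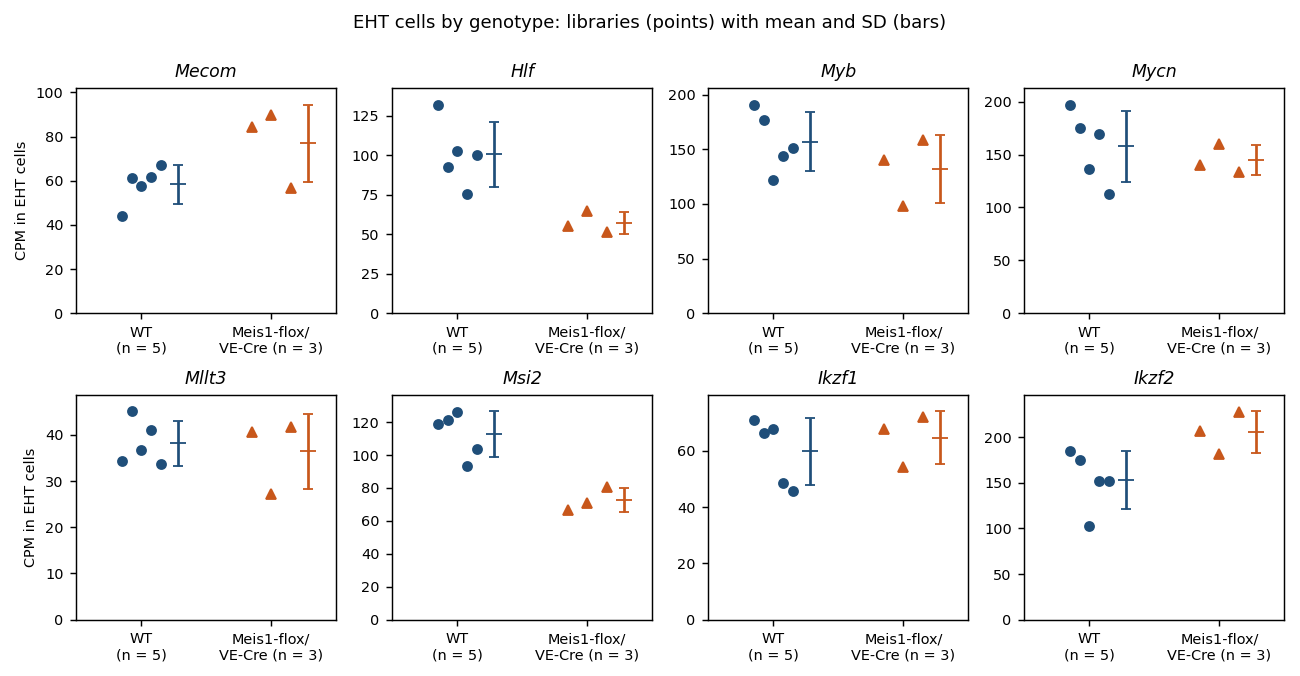
CPM of 8 genes in EHT cells of each library, with the mean and SD of the 5 WT (circles) and 3 Meis1-flox/VE-Cre libraries (triangles). The groups do not overlap for Hlf (51.3 to 64.6 against 75.5 to 132) and Msi2 (66.8 to 80.5 against 93.1 to 126), and overlap for the other 6 genes. The share of all genes without overlap was not computed.

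In EMP cells 1 of 6 genes was called, Ikzf2, against 4.74% of all genes. Ikzf2 measured 140.4, 132, 132, 114 and 102 CPM in WT and 166, 136 and 182 in Meis1-flox/VE-Cre libraries, a log2 difference of 0.44 ± 0.13 (adjusted p = 0.0961). The groups overlapped, and the call was lost in 6 of the 8 fits that left out a library (adjusted p = 0.101 to 0.273), all but those without WT 5 (0.0988) and without Meis1-flox/VE-Cre 2 (0.0890). Erythroid markers in EMP cells summed to 6.295 to 213 CPM in WT and 313 to 1846 in Meis1-flox/VE-Cre libraries, myeloid markers to 696 to 1061 and 1118 to 1800, and lymphoid markers to 4.36 to 11.6 and 0 to 0.974. Their part in the result was not tested. Hlf and Mecom were too low in EMP cells to pass the filter.

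In the endothelium Mecom was the gene with the smallest p. In aEC cells it measured 51.0, 40.2, 37.5, 64.1 and 55.7 CPM in WT and 72.0, 79.3 and 65.3 in Meis1-flox/VE-Cre libraries, which did not overlap, with a log2 difference of 0.54 ± 0.16 (adjusted p = 0.323, edgeR quasi-likelihood test). In aEC cells 0 of 5 genes were called by edgeR, 1 had an unadjusted p under 0.05 and DESeq2 called 0, against 0% of all 9540 genes (1000 at an unadjusted p under 0.05, and 11 called by DESeq2). In vEC cells 0 of 8 were called by edgeR and by DESeq2, against 0.0164% of all genes called by edgeR. Of these 8, 2 had an unadjusted p under 0.05 by edgeR, Mecom (0.46 ± 0.15, adjusted p = 0.226) and Ikzf1 (1.20 ± 0.51, adjusted p = 0.282, from 2 to 12 UMIs per library). Without WT 5 the Mecom difference was called in aEC (0.57, adjusted p = 0.0778) and in vEC cells (0.59, adjusted p = 0.00491). With WT 5 as the only WT library it was 0.36 in aEC cells (adjusted p = 0.999), and the 2 vEC differences turned in sign (-0.013 for Mecom, -0.147 for Ikzf1). For pre-HE cells edgeR and DESeq2 called 0 of 3 genes, 0 had an unadjusted p under 0.05, and 0.489% of all genes were called. Myeloid markers summed to 1.58 to 4.39 CPM in WT and 6.75 to 15.4 in Meis1-flox/VE-Cre vEC cells, and to 0 to 4.67 and 9.57 to 17.7 in pre-HE cells, and their part was not tested. Mecom in pre-HE cells measured 404, 341, 357, 281 and 379.8 CPM in WT and 465, 397 and 398 in Meis1-flox/VE-Cre libraries (0.31 ± 0.18, adjusted p = 0.776).

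Outside EHT, the Msi2 values of the genotypes overlapped in EMP cells, at 37.6 ± 3.95 CPM in WT and 31.0 ± 4.92 in Meis1-flox/VE-Cre libraries (-0.21 ± 0.15, adjusted p = 0.480). In Myeloid cells it measured 24.9, 19.7, 21.2, 23.5 and 33.9 CPM in WT and 15.3, 17.3 and 15.2 in Meis1-flox/VE-Cre libraries (-0.57 ± 0.17, adjusted p = 0.139). In Megakaryocytes it measured 128, 75.3, 60.4 and 78.6 CPM in 4 WT and 40.5, 46.0 and 27.1 in Meis1-flox/VE-Cre libraries (-1.14 ± 0.30, adjusted p = 0.291). In neither Myeloid cells nor Megakaryocytes did the groups overlap, and neither difference passed the threshold, which that in Myeloid cells did without WT 5 (-0.42, adjusted p = 0.0497). In endothelium the log2 difference of Msi2 was 0.17 ± 0.15 in aEC and 0.13 ± 0.10 in vEC cells, with overlapping groups. The differences between cell types in this respect were not tested outside EHT against EMP.

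In Myeloid cells 0 of 9 genes were called by edgeR, against 3.26% of all genes called by edgeR. Of these 9, 1 had an unadjusted p under 0.05 and DESeq2 called 1, Msi2. In Megakaryocytes 0 of 5 were called by edgeR, against 0.206% of all genes called by edgeR. Of these 5, 2 had an unadjusted p under 0.05 (Msi2 and Mycn) and DESeq2 called 1, Msi2. Mycn measured 17.4, 28.2, 30.6 and 23.3 CPM in WT and 6.16, 15.3 and 11.1 in Meis1-flox/VE-Cre Megakaryocytes (-1.19 ± 0.32, adjusted p = 0.297), with no overlap. Marker levels moved with genotype in these cells too. In Megakaryocytes the erythroid markers summed to 303 to 6664 CPM in WT and 8201 to 36620 in Meis1-flox/VE-Cre libraries. In Myeloid cells the myeloid markers summed to 644 to 1260 and 1478 to 2059 CPM, and the lymphoid markers to 13.7 to 34.0 and 1.69 to 4.78. Their part in the Msi2 and Mycn differences was not tested.

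Genes that belong with these 9 were described in 3 lists: 12 paralogs (such as Myc, Mybl2 and Ikzf5), 13 partner proteins (such as the elongation factors Aff1 and Aff4, to which the Mllt3 protein binds, and the chromatin proteins Chd4 and Hdac2, to which Ikaros binds) and 20 other regulators of stem cells. Between EHT and EMP cells of WT libraries 4 of 6 tested paralogs were called, 2 higher and 2 lower in EHT cells, against 56.4% of all genes called (28.8% higher and 27.6% lower), with a median log2 fold change of -0.10 against 0.01 over all genes. Myc, which drives cell growth, was lower in EHT cells (-0.85 ± 0.13), opposite to Mycn, and so was Mybl2 (-0.64 ± 0.15), while Tef, a PAR bZIP factor like Hlf, was higher (0.68 ± 0.30). Of 13 partners 9 were called, 6 higher and 3 lower, against the same 56.4%, with Aff1 lower (-0.87 ± 0.20) and Hdac2 (0.43 ± 0.07), Chd4 (0.42 ± 0.06) and Aff4 (0.41 ± 0.12) higher.

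Of 17 tested other regulators 8 were called between EHT and EMP cells, 6 higher and 2 lower, against 56.4% of all genes, with a median of 0.17. None of these list counts was tested against that share. They included Gfi1, a repressor needed to shut down the endothelial program (4.95 ± 0.27), Hoxa9 (4.84 ± 0.25), Sox17, a factor of arterial and hemogenic endothelium (2.38 ± 0.35), and Erg (1.59 ± 0.17). Against aEC cells 14 of 18 were called, 11 higher and 3 lower in EHT cells, against 71.5% of all genes (35.8% higher and 35.7% lower), with a median of 1.19 against 0.01 over all genes, led by Gfi1 (8.84 ± 0.33), Runx1 (7.23 ± 0.15), Nfe2 (6.75 ± 0.32) and Meis1 (5.77 ± 0.18). In the CD43 split 5 of 16 were called, all 5 lower in CD43-high cells, against 12.1% of all genes (7.08% lower), among them Sox17 (-2.29 ± 0.37), Gfi1 (-1.25 ± 0.16) and Tal1 (-0.52 ± 0.13), while the paralog Myc (0.69 ± 0.16) and the partner Chd4 (0.28 ± 0.07) were higher there. Between genotypes in EHT cells 2 of 18 were called, 1 higher and 1 lower in the Meis1-flox/VE-Cre libraries, against 0.127% of all genes. The one that was lower was Lmo2, a partner of Tal1 in blood formation (-0.71 ± 0.13, adjusted p = 0.0549). By edgeR 0 of 4 paralogs and 0 of 13 partners were called.

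The genes whose profile was most like that of each member were found by Pearson's r of log2(CPM + 1) over 49 sums of WT libraries and cell types, among 7850 genes. The sums share libraries and depth, and r is given as a description. Hlf was most like Gfi1 (r = 0.867), and Mecom most like H19 (0.947), Fn1 (0.943) and Igf2 (0.937). Myb was most like Mctp1 (0.962) and Spn (0.960), the gene of CD43, and Mycn most like Gimap9 (0.780). Mllt3 was most like Pdlim1 (0.917), Msi2 like Pdzk1ip1 (0.835), Prdm16 like Pcsk5 (0.902), Ikzf1 like Dock2 (0.964) and Ikzf2 like Frrs1 (0.939). Among the members themselves r was highest for Myb and Ikzf1 (0.89), Myb and Ikzf2 (0.86) and Mecom and Prdm16 (0.82). The last pair was shown above for its shared run of bases, and a link between sequence and profile was not tested.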

How the data were processed

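Single CD31-positive cells of the AGM region were profiled by CITE-seq in 8 libraries (WT, 5; Meis1-flox/VE-Cre, 3). The authors deposited UMI counts per gene and cell, made with Cell Ranger 3.0.2 and mm10 (named in the submitters' processing notes), and a table giving each cell's library and cell type. By the study's methods, cells with over 2000 genes and under 10% mitochondrial reads were kept, and clusters from integrated data were named by hand. Antibody tag counts were deposited with the same cells.

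The members and the gene lists were chosen with earlier results of these data known. Counts were summed per library and cell type, leaving out sums of under 10 cells, scaled by TMM, filtered with filterByExpr and tested over all genes by edgeR 4.0.16 (R 4.3.3) with the quasi-likelihood test. The filter keeps a gene on the counts of either group. A gene near 0 in one group can therefore be called in one direction only. Comparisons of cell types had the library as a block, and p-values were adjusted by Benjamini-Hochberg, with calls at an adjusted p under 0.1. The genes named were the 9 members, up to 4 of each list by the size of a called change, and up to 3 genes by likeness, among genes reaching 20 CPM, on log2(CPM + 1). Likeness and CPM used Python 3.11.15 with pandas 2.3.3, numpy 2.4.6 and scipy 1.17.1, and figures matplotlib 3.10.9. Doublets were marked with Scrublet (scanpy 1.11.5, 30 components): 83 of 15168 cells (0.547%), which were kept in the main tests. Tested on simulated counts with 200 genes changed by a log2 of 1.5, the procedure called 97% of the changed genes between EHT and EMP cells of WT libraries, 90.5% between genotypes in EHT cells and 88% in the CD43 split. The changed genes were drawn from those that passed the filter. All genes were given 1 common spread, and libraries of a group differed in depth only. How often the procedure calls genes that the filter removes was not tested. Neither was how often it calls smaller differences, such as those of the members between genotypes in EHT cells.

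Alternatives were RLE scaling, DESeq2 1.42.0, no filter, an adjusted p under 0.05, Bonferroni adjustment, sums of at least 20 cells, thinning to 5000 or 3000 UMIs, no doublets, no library block, a replicate block, WT 5 as the only WT library, other antibody tags, and leaving out each library. A fit of libraries 1 to 3 without the block was chosen after seeing the data. Each library is a pool of embryos, so p-values measure the spread between pools. Where a floor or an interval is given, it covers counting error only. The 3' tags counted here were not resolved by exon or isoform. A member of the list of other regulators is counted in that list but not reported here by name or value.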

Additional observations from a re-analysis of the deposited data

Results flagged for a closer look

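Of 90 groups of a gene, cell type and genotype with 4 or 5 libraries, 4 (4.44%) held a library far from the others by Dixon's test at its 95% critical value. Chance gives about 1 in 20. Each of the 4 rests on 6 or fewer UMIs.

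In Megakaryocytes Hlf was at 2.50 CPM in WT 5 (6 UMIs in 102 cells) and at 0 in the other 3 WT libraries. In pre-HE cells Myb was at 5.53 CPM in WT 1 (3 UMIs in 39 cells) and at 0 in the other 4. In vEC_1 cells Myb was at 0.567 CPM in WT 3 (2 UMIs) and between 0.160 and 0.267 in the others. In vEC_4 cells Ikzf1 was at 0.899 CPM in WT 5 (2 UMIs in 218 cells) and between 0 and 0.160 in the others. What set these libraries apart was not tested.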

How the results depend on the processing

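The direction and call of Mecom, Hlf, Mycn, Mllt3 and Msi2 between EHT and EMP cells of WT libraries were kept under every alternative run. The counts of genes called changed as follows, and the cause was not tested. With Bonferroni adjustment 5 were called between EHT and EMP cells in WT and 5 in Meis1-flox/VE-Cre libraries, 2 between EMP and Myeloid cells, 3 between EMP cells and Megakaryocytes, 3 in the CD43 split and 0 between genotypes in EMP cells, where an adjusted p under 0.05 also gave 0. With DESeq2, 5 were called between EHT and EMP cells in Meis1-flox/VE-Cre libraries and 1 each between genotypes in EHT, Myeloid cells and Megakaryocytes. Thinning to 5000 UMIs gave 2 between pre-HE and aEC cells, 4 between EHT and EMP cells in Meis1-flox/VE-Cre libraries and 3 in the CD43 split, and no library block gave 5 between EHT and EMP cells in Meis1-flox/VE-Cre libraries. With no filter 2 were called between genotypes in EHT cells, 1 in aEC cells and 2 in Megakaryocytes. With WT 5 as the only WT library, the library of like depth, 0 were called in EMP and 2 in Myeloid cells. Split by CD45, CD117 and CD41 tags, 0, 2 and 3 were called.

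Same-numbered libraries were at most weakly alike: 7 of 20 pairs had r above 0.1 (-0.179 to 0.256). No value for unpaired libraries was set beside these, so whether the libraries pair was not decided. With the replicate number as a block, which keeps libraries 1 to 3, 4 genes were called between genotypes in EHT cells (Hlf, Msi2, Mecom and Ikzf2), 0 in EMP and 1 each in aEC, vEC and Myeloid cells. The same libraries without the replicate block gave 2 in EHT, 0 in EMP and 1 each in aEC, vEC, Myeloid cells and Megakaryocytes.

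Leaving out 1 library at a time gave 6 to 8 genes called for EHT against EMP in WT and 5 to 7 in Meis1-flox/VE-Cre libraries, 7 to 7 against aEC, 8 to 8 against vEC, 8 to 9 against pre-HE, 4 to 5 for pre-HE against aEC, and 6 to 7, 4 to 6 and 6 to 6 for EMP against vEC, Myeloid cells and Megakaryocytes. It gave 5 to 6 in the CD43 split and 0 to 0 for the interaction. Between genotypes it gave 0 to 2 in EHT, 0 to 1 in EMP, 0 to 0 in pre-HE, 0 to 1 in aEC, 0 to 1 in vEC, 0 to 2 in Myeloid cells and 0 to 0 in Megakaryocytes.

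Some log2 differences changed sign: Mecom for EHT against aEC without WT 2 (-0.034, and up to 0.167 without other libraries), Prdm16 for EHT against vEC without WT 1 (0.028, and down to -0.301 without others), Msi2 for pre-HE against aEC with sums of at least 20 cells (-0.003), and between genotypes in vEC, with WT 5 alone, Mecom (-0.013) and Ikzf1 (-0.147). In the splits of EHT cells by other tags these were Mecom (0.129) and Msi2 (-0.104) by CD45, Hlf (-0.025), Ikzf1 (-0.219) and Ikzf2 (0.072) by CD117, and Hlf (-0.115) by CD41. Low counts limit Prdm16 in all cell types, and Hlf and Mecom in EMP cells.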
